A study of Mus musculus with 12 samples.

Results

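Immunoglobulin gene segments are the variable (V), diversity (D), joining (J) and constant (C) pieces from which B cells assemble antibody genes. They were taken by their annotated biotype (IG_V_gene, IG_D_gene, IG_J_gene or IG_C_gene), without use of any measured value, which gave 264 of the 54532 genes in the expression tables. The heavy chain locus Igh holds 144 of them (113 V, 19 D, 4 J and 8 C), the kappa light chain locus Igk 108 (102 V, 5 J and 1 C) and the lambda light chain locus Igl 12 (3 V, 5 J and 4 C). In all, there were 218 V, 19 D, 14 J and 13 C segments, and the chromosome, start, end and strand of all 264 were those of GENCODE M21 on the mouse build GRCm38.

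The study deleted ieCtnnb1, an intestinal enhancer of Ctnnb1, from the mouse germ line, so that every cell of the animal lacked it, and sequenced RNA of small intestine crypts and of colon tumors. The crypts came from adult mice labelled Wild type or ieCtnnb1KO, and the tumors from adult mice labelled APCmin/+ or APCmin/+;ieCtnnb1KO, so both tumor groups carried the Min allele of Apc. There were 3 libraries a group and 12 in all, the mice were of C57BL/6 background, and no group was treated. Crypts were released from the gut wall with EDTA and were not sorted, tumors were taken as whole tissue, and either can hold immune cells.

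B cells join a V, a D and a J segment of the heavy chain, and a V and a J segment of a light chain, by DNA recombination, and the C segment gives the antibody its class (isotype). Plasma cells, the end stage of B cells, carry most immunoglobulin RNA, and in the gut wall they mainly make IgA, which the epithelium carries into the lumen. Naive B cells make IgM and IgD from the same heavy chain transcript and switch to IgG, IgE or IgA later.

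Values are deposited FPKM, fragments per length of the gene and size of the library. Multiplied by gene length, they came in equal steps within each library, and counting these steps (tolerance 0.05) gives the number of fragments. On genes, the wild-type crypt libraries 1, 2 and 3 held 14457896, 16042558 and 16074777 fragments, and the ieCtnnb1KO crypt libraries 15717741, 15819430 and 14685020. The APCmin/+ tumor libraries held 15895487, 16156712 and 14648696 fragments, and the APCmin/+;ieCtnnb1KO tumor libraries 16143130, 16041000 and 16064312. Below, the tumor groups are called control tumors and knockout tumors. Tables of the 2 tissues were normalized separately, so levels in crypts and tumors are set side by side without a test.

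The gene whose enhancer was deleted was lower in the knockout of both tissues. Ctnnb1 (ENSMUSG00000006932), which encodes beta-catenin, had 121, 134 and 123 FPKM in wild-type crypts and 102, 104 and 105 in ieCtnnb1KO crypts. In tumors it had 299, 363 and 358 FPKM in controls and 279.4, 248 and 250.2 in knockouts. The groups did not overlap in either tissue, with log2 fold changes of −0.28 in crypts (SE 0.12, adjusted p = 0.849 from limma) and −0.39 in tumors (SE 0.13, adjusted p = 0.303 from limma).

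Sex differed between tumor libraries. Xist, which is transcribed from the inactive X chromosome, had 114 FPKM in control tumor 3 and 61.4 in knockout tumor 3, where the Y-linked gene Ddx3y had 0 and 0.0247. In the other 4 tumor libraries Ddx3y had 8.65 to 12.9 FPKM, and in the 6 crypt libraries 8.32 to 9.86. Xist and Ddx3y were chosen after their values were seen. Each tumor group thus held 1 library of this kind, and sex was not a term of the fit.

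J segments, which link V or D to C in a joined gene, are shown first, 11 of 14, without Iglj2, Iglj3 and Iglj4. They are the longest J transcripts of GENCODE M21 on GRCm38, written 5′ to 3′ on the coding strand, which is minus on chromosome 12 (Igh) and chromosome 16 (Igl) and plus on chromosome 6 (Igk). Capitals mark the first match to TTCGG or TGGGG, followed by 4 free bases and GG, which codes for the conserved J motif of light and heavy chains.
Ighj1 (chr12:113429781-113429833, minus strand): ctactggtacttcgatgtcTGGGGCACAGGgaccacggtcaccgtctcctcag
Ighj2 (chr12:113429468-113429515, minus strand): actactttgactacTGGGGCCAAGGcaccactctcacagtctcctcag
Ighj3 (chr12:113429085-113429132, minus strand): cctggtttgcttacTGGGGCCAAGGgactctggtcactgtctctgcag
Ighj4 (chr12:113428514-113428567, minus strand): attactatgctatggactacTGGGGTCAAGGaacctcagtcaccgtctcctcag
Igkj1 (chr6:70722562-70722599, plus strand): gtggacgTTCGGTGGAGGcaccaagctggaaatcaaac
Igkj2 (chr6:70722916-70722954, plus strand): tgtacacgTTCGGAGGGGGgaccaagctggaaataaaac
Igkj3 (chr6:70723223-70723260, plus strand): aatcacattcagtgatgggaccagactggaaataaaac
Igkj4 (chr6:70723548-70723585, plus strand): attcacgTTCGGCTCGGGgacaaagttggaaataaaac
Igkj5 (chr6:70723886-70723923, plus strand): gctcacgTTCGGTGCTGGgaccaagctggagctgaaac
Iglj1 (chr16:19063225-19063262, minus strand): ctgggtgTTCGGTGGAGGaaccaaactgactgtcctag
Iglj3p (chr16:19066371-19066408, minus strand): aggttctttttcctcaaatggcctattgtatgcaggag
The motif was found in 4 of 4 Igh, 4 of 5 Igk and 4 of 5 Igl J segments, and Igkj3 and Iglj3p were the J segments without it. All J transcripts were between 38 and 54 bases long, shorter than a 150-base read. The gene lengths given with the FPKM ran from 48 to 100 bases for Igh J segments.

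V segments are shown by the 60 bases at their 3′ end, where they are joined to D or J, for the V segments that the comparisons turn on. Capitals mark the last match to TAT or TAC, then TAT, TAC, TTT or TTC, then TGT or TGC, which ends in the codon of the conserved cysteine before the joint.
Ighv6-3 (chr12:114391712-114391771, minus strand): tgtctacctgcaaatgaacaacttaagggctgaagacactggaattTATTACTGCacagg
Ighv1-19 (chr12:114708648-114708707, minus strand): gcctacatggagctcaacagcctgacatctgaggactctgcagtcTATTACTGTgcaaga
Ighv1-26 (chr12:114788372-114788431, minus strand): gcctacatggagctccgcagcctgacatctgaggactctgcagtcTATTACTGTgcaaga
Ighv1-47 (chr12:114991108-114991167, minus strand): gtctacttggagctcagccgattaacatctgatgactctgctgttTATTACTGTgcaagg
Ighv1-5 (chr12:114513330-114513389, minus strand): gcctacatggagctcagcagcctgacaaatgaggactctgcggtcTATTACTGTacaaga
Ighv1-81 (chr12:115920279-115920338, minus strand): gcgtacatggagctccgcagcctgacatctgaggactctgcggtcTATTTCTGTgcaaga
Igkv4-57 (chr6:69575975-69576034, minus strand): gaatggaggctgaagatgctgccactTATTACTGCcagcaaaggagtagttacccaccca
Igkv4-55 (chr6:69607275-69607334, minus strand): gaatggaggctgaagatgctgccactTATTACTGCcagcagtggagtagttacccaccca
Igkv9-123 (chr6:67954228-67954287, minus strand): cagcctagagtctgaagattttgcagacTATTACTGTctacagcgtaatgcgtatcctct
Igkv10-96 (chr6:68631963-68632022, minus strand): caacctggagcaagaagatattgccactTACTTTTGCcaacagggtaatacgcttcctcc
Igkv8-30 (chr6:70117061-70117120, minus strand): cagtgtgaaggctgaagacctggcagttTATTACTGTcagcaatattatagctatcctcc
Igkv1-110 (chr6:68271208-68271267, plus strand): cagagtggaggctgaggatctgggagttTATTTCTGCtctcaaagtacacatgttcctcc
Igkv1-117 (chr6:68121768-68121827, plus strand): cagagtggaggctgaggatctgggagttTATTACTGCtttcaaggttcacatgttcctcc
Iglv1 (chr16:19085017-19085076, minus strand): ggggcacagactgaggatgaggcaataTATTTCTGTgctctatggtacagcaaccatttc
Iglv2 (chr16:19260401-19260460, minus strand): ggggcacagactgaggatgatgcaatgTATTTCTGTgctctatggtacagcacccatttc
Iglv3 (chr16:19241207-19241266, minus strand): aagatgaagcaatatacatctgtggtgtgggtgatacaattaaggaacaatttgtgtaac
This motif stood in the last 60 bases of 209 of the 218 V segments (95.9%), 108 of 113 in Igh, 99 of 102 in Igk and 2 of 3 in Igl. Iglv3 has no match in this window. Only the strand of the segment was searched, and a match is a description of the letters.

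V segments resemble each other closely, which bears on how fragments are assigned to them. The nearest relative of a V segment, among all V segments and V pseudogenes, had a median identity of 94.9% over the shorter transcript (58.4% to 99.7%). An identity of at least 95% was found for 108 of 218 and of at least 98% for 20, and no pair was identical. Ighv1-62-2 and Ighv1-71 were 99.7% identical, Igkv1-110 and Igkv1-117 97.5%, and Iglv1 and Iglv2 96.7%. How reads that fit several segments were counted, and whether strand was used, is not stated, and its part in the values of single V segments and of their sums was not tested.

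Immunoglobulin RNA was a small share of crypt RNA and a larger share of tumor RNA. Immunoglobulin segments took 0.0485%, 0.0439% and 0.0375% of the fragments of wild-type crypts (95% Wilson intervals 0.0474 to 0.0496, 0.0428 to 0.0449 and 0.0365 to 0.0384). In ieCtnnb1KO crypts they took 0.0337%, 0.0434% and 0.0315% (0.0328 to 0.0346, 0.0424 to 0.0445 and 0.0306 to 0.0324). In control tumors the shares were 0.702%, 0.204% and 0.325% (0.698 to 0.706, 0.202 to 0.206 and 0.322 to 0.328), and in knockout tumors 0.699%, 0.467% and 0.362% (0.695 to 0.703, 0.463 to 0.470 and 0.359 to 0.365). Control tumor 1 and knockout tumor 1 held the largest shares and control tumor 2 the smallest, so tumors of the same genotype differed more from each other than the groups did. Intervals and floors cover counting error only.

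Most segments were detected, and the depth per segment differed between the tissues. In crypts 203 of 264 had at least 1 fragment (178 V, 3 D, 10 J and 12 C), 137 had at least 10 over the 6 libraries, 20 at least 100, and 59 were above 0 in every library. In tumors 218 of 264 had at least 1 fragment (192 V, 2 D, 12 J and 12 C), 190 had at least 10, 133 at least 100, and 136 were above 0 in every library. At 0 in all 12 libraries were 38 segments (21 V, 15 D, 2 J and 0 C). A count of 0 in a library allows up to 3 fragments, which for a gene of 1 kb is 0.179 to 0.214 FPKM. The filter on low values, a mean FPKM of at least 0.5 over the 6 libraries of a tissue, kept 108 segments in crypts (86 V, 2 D, 9 J and 11 C) and 182 in tumors (160 V, 1 D, 12 J and 9 C).

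The crypt comparison addresses how loss of the enhancer alters expression in the normal intestinal epithelium and the cells that come with it. V segments were lower in ieCtnnb1KO crypts, at 166, 193 and 206 summed FPKM in wild type (188 ± 20.6, SD, n = 3) and 100.4, 113 and 95.5 in ieCtnnb1KO (103 ± 9.14, SD, n = 3). Every ieCtnnb1KO library was below every wild-type library, and the log2 difference, which for sums is that between the groups' mean log2 values, was −0.87. C segments differed less, at 346, 350 and 269 summed FPKM in wild type and 250.2, 322 and 262 in ieCtnnb1KO, with groups that overlapped and a log2 difference of −0.21. No segment passed the test. The sum over all kinds was 563, 583 and 557 FPKM in wild type and 374, 505 and 396 in ieCtnnb1KO (log2 difference −0.43, no overlap). As the number of fragments scaled to library size, which weighs long segments more, it was 485, 439 and 375 against 337, 434 and 315, with overlap. A sum was given no p, and in bulk samples fewer B cells and less RNA per cell cannot be told apart.

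**Figure D1:**
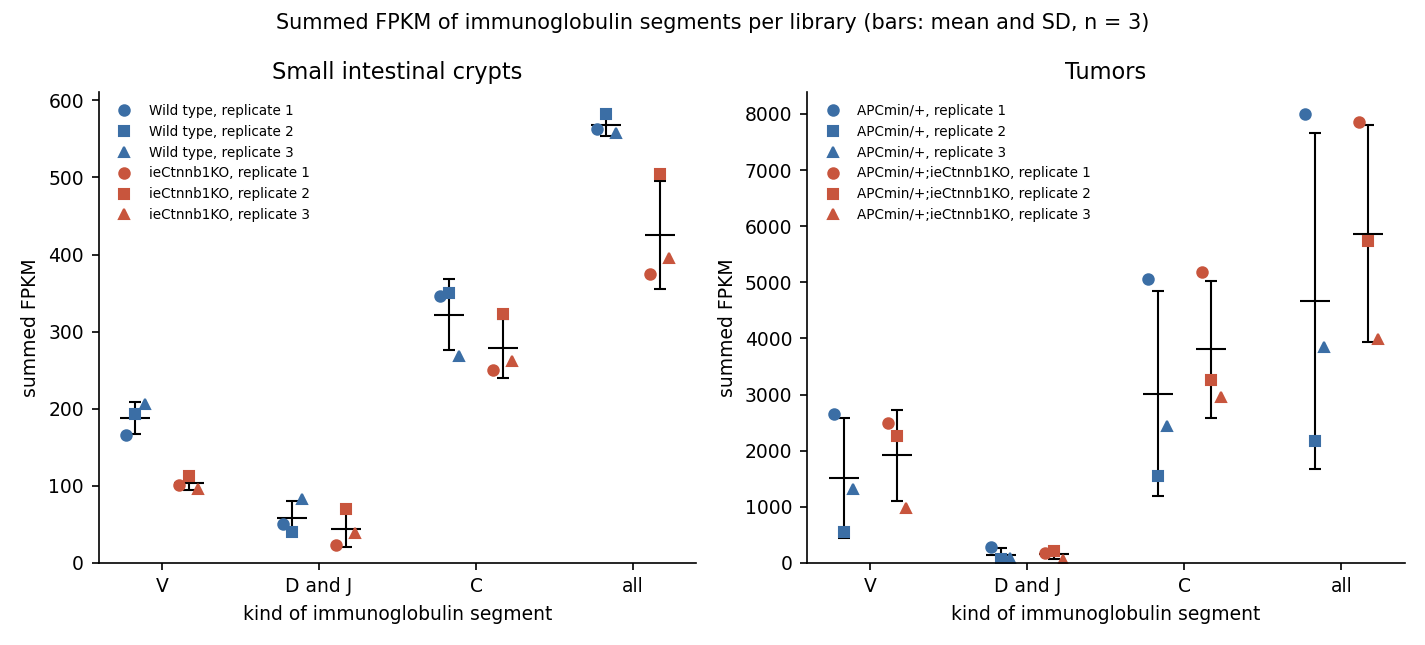
Summed FPKM (vertical axis) of V, D and J, C and all immunoglobulin segments, with a point for each library, marker shape for the replicate number, color for the group, and bars for the mean and SD of 3 libraries. In crypts the ieCtnnb1KO points of V, 95.5 to 113, lie below the wild-type points, 166 to 206, while in tumors the groups overlap for every kind.

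None of the 108 tested segments had an adjusted p below 0.05 in crypts, against 0 of 14176 genes (0%), with limma on log2(FPKM + 0.5). The smallest adjusted p of any gene was 0.728, and voom on the recovered fragments also called 0 segments. At an unadjusted p below 0.05, 20 segments (18.5%) were lower in ieCtnnb1KO, against 335 of all tested genes (2.36%), and 1 segment was higher (0.926%), against 494 genes (3.48%). Groups did not overlap, with ieCtnnb1KO lower, for 21 segments (19.4%), against 730 genes (5.15%), and with ieCtnnb1KO higher for 1 segment, against 963 genes (6.79%). Of the 21 segments 11 averaged below 0.5 FPKM in ieCtnnb1KO, so they passed the filter through wild type. With that limit in each group, tried after the data were seen, 10 of 73 segments (13.7%) were lower without overlap, against 624 of 13590 genes (4.59%). Under it 0 segments were higher without overlap, against 930 genes (6.84%). The log2 fold change was below 0 for 92 of 108 segments (85.2%), against 6698 of 14176 genes (47.2%), with a median of −0.52 for the segments and 0.01 for all genes. The filter bears on this share, since 31 of the 108 segments passed it only through wild type and 4 only through ieCtnnb1KO. Without a filter the median of 203 segments was −0.28, with 157 below 0, against 13977 of 26718 genes. Of these 203 segments 21 were lower at an unadjusted p below 0.05 (10.3%), against 635 of 26718 genes (2.38%). Segments of an antibody share cells and are not independent of each other, and the p-values measure the spread between libraries of different mice.

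The heavy chain C segments of crypts were shared among IgA, IgM, IgG and IgD. Igha (ENSMUSG00000095079, chr12:113254830-113260236, minus strand), the IgA constant segment, had 41.3, 48.0 and 46.2 FPKM in wild type and 43.7, 51.5 and 34.1 in ieCtnnb1KO. Its groups overlapped, with ieCtnnb1KO libraries both highest and lowest (log2 fold change −0.08, adjusted p = 0.965 from limma, and log2 fold change 0.07 without ieCtnnb1KO 3). Ighm, the IgM constant segment, had 44.2, 36.4 and 22.6 FPKM in wild type and 22.5, 32.3 and 24.8 in ieCtnnb1KO. Wild-type libraries 1 and 2 were high and wild-type 3 was as low as the lowest ieCtnnb1KO library (log2 fold change −0.33). Ighd, the IgD constant segment, had 12.8, 9.09 and 7.55 FPKM against 6.17, 10.996 and 7.46, also with overlap (log2 fold change −0.25).

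Ighg3, the IgG3 constant segment, was the only C segment whose groups did not overlap. It had 5.71, 5.42 and 4.34 FPKM in wild type and 2.96, 2.47 and 3.34 in ieCtnnb1KO (log2 fold change −0.72, SE 0.16, adjusted p = 0.728 from limma). The other IgG segments overlapped. Ighg2b had 11.5, 10.6 and 5.72 FPKM against 5.60, 7.78 and 8.61, Ighg1 1.64, 1.77 and 1.06 against 1.73, 1.497 and 5.19, and Ighg2c 1.02, 0.641 and 0.192 against 0.649, 1.98 and 1.23. Ighg1 of ieCtnnb1KO 3 stood above the other 5 libraries, and the IgG sum was 19.9, 18.4 and 11.3 FPKM in wild type and 10.9, 13.7 and 18.4 in ieCtnnb1KO. Ighe, the IgE constant segment, was at 0 in all 6 crypt libraries.

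As shares of heavy chain C FPKM, IgA took 34.9%, 42.9% and 52.7% in wild-type crypts and 52.5%, 47.4% and 40.2% in ieCtnnb1KO crypts. IgM took 37.4%, 32.5% and 25.8% in wild type and 27.0%, 29.8% and 29.3% in ieCtnnb1KO. Wild-type 1 thus had the largest share of IgM and wild-type 3 the largest of IgA, and the ieCtnnb1KO libraries lay between them. IgG took 16.8%, 16.5% and 12.9% against 13.1%, 12.6% and 21.7%, and IgD 10.8%, 8.12% and 8.62% against 7.41%, 10.1% and 8.80%. The ratio of Ighm to Ighd was between 2.94 and 4.01 in every crypt library.

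**Figure D2:**
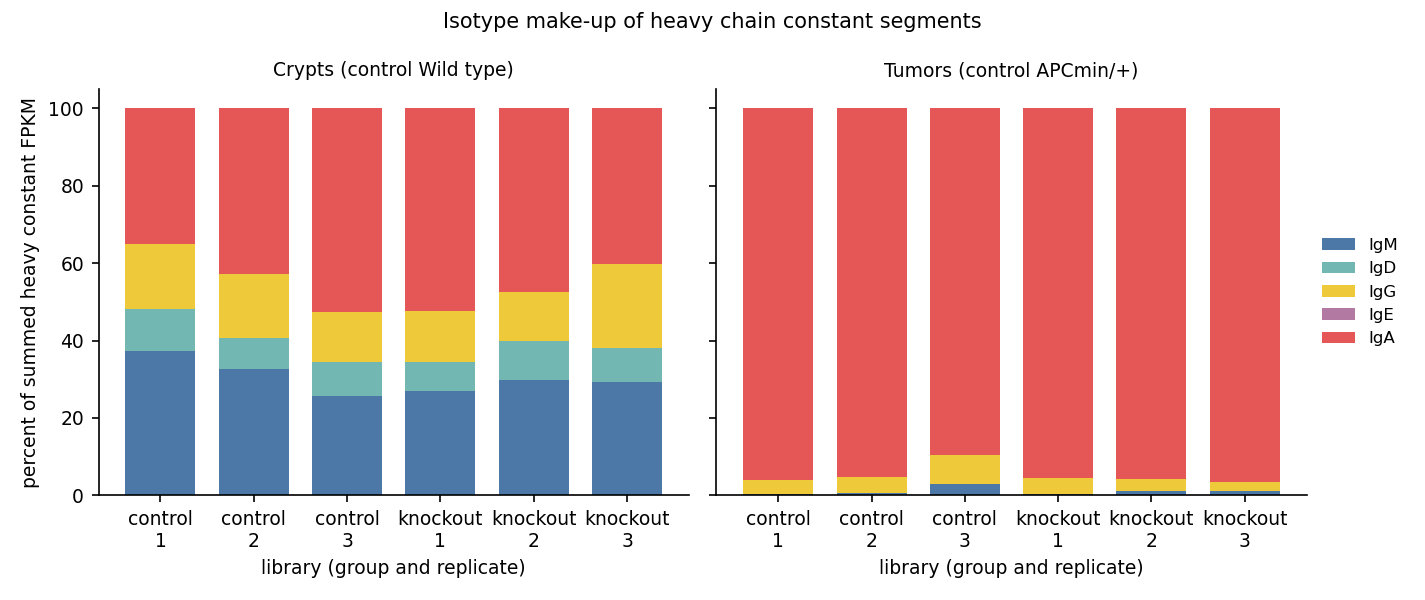
Percent of the summed heavy chain constant FPKM (vertical axis) taken by IgM, IgD, IgG, IgE and IgA, as stacked bars, a bar for each library of crypts and tumors. IgA fills 34.9% to 52.7% of the bars in crypts and 89.7% to 96.4% in tumors, where IgM stays at or below 2.88%.

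Light chain C segments followed the heavy chain in level. Igkc (ENSMUSG00000076609, chr6:70726435-70726966, plus strand), the kappa constant segment, had 214, 216 and 158 FPKM in wild-type crypts and 154, 189 and 162 in ieCtnnb1KO crypts (log2 fold change −0.21). Wild-type 3 lay among the ieCtnnb1KO libraries. Of the lambda constant segments, Iglc1 had 6.97, 16.3 and 12.8 FPKM against 7.58, 16.3 and 10.98, Iglc2 3.27, 3.74 and 5.21 against 3.01, 4.88 and 3.14, and Iglc3 3.72, 2.17 and 4.52 against 1.77, 3.30 and 1.58, all with overlap. Iglc4 had 2 fragments, both in ieCtnnb1KO 2. Lambda made up 6.11%, 9.32% and 12.4% of light chain C FPKM in wild type and 7.40%, 11.6% and 8.86% in ieCtnnb1KO. The ratio of light to heavy chain C FPKM was 1.93 to 2.13 in the 6 libraries.

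The lower V level in ieCtnnb1KO crypts was seen at both large loci. Summed Igh V FPKM was 60.8, 74.0 and 78.8 in wild type and 30.8, 39.9 and 33.5 in ieCtnnb1KO, a log2 difference of −1.04. Summed Igk V FPKM was 93.7, 103 and 111 in wild type and 60.7, 58.2 and 52.4 in ieCtnnb1KO, a log2 difference of −0.84. Neither pair of groups overlapped. Igl V overlapped, at 11.1, 16.4 and 16.3 FPKM against 8.95, 15.2 and 9.65. In fragments, V segments had 948, 1091 and 1192 in wild type and 606, 706 and 498 in ieCtnnb1KO, which scaled to equal library size is 65.6, 68.0 and 74.2 against 38.6, 44.6 and 33.9. Of the 86 tested V segments 76 had a log2 fold change below 0 (median −0.60, range −1.78 to 1.01), 34 of 38 in Igh and 40 of 45 in Igk. The filter bears on this tally, since more segments of all kinds passed it only through wild type (31) than only through ieCtnnb1KO (4). Of the 11 tested C segments 9 were below 0 (median −0.21), and of the 9 tested J segments 6 (median −0.34).

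Single V segments rested on few fragments, with a median of 33.5 over the 6 libraries among tested V segments. Ighv6-3 had 3.45, 2.94 and 3.23 FPKM in wild type and 0.518, 1.34 and 1.40 in ieCtnnb1KO (log2 fold change −1.28, SE 0.26, adjusted p = 0.728 from limma). Igkv4-57 had 1.28, 1.86 and 0.906 FPKM in wild type and 0, 0.1696 and 0 in ieCtnnb1KO, which is 22 fragments against 1 (log2 fold change −1.71, SE 0.28, adjusted p = 0.728 from limma). In both, each wild-type library was above each ieCtnnb1KO library, and ieCtnnb1KO 1 had the lowest or a 0 value. Ighv1-19 had 0.957, 4.20 and 1.10 FPKM against 0, 0.295 and 0.176, and here wild-type 2 stood above the rest (log2 fold change −1.78, SE 0.47). Igkv9-123 had 2.23, 1.21 and 2.1997 FPKM against 0.163, 0 and 0.944 (log2 fold change −1.57, adjusted p = 0.757 from limma). The 3′ ends of these 4 segments are among the sequences printed above. Of them, Igkv4-57, Ighv1-19 and Igkv9-123 averaged below 0.5 FPKM in ieCtnnb1KO, so they passed the filter through wild type.

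Abundant V segments of crypts showed the same order for some segments only. Igkv10-96 had 6.66, 4.92 and 3.91 FPKM in wild type and 2.74, 2.83 and 3.17 in ieCtnnb1KO (log2 fold change −0.70, SE 0.19, adjusted p = 0.757 from limma). Ighv1-26 had 3.13, 5.78 and 3.998 FPKM against 1.75, 2.89 and 1.83 (log2 fold change −0.84, adjusted p = 0.797 from limma). Both had groups apart, though the gaps were small beside the spread of the wild-type libraries. Igkv1-110, the most abundant kappa V segment in 4 of the 6 libraries, had 9.504, 4.57 and 4.45 FPKM against 7.81, 4.91 and 3.73, and its groups overlapped. Igkv1-117, Igkv6-15 and Igkv6-23 overlapped too, at 5.92, 4.53 and 3.63 against 1.52, 4.14 and 2.82, at 2.98, 7.35 and 4.60 against 3.72, 3.27 and 1.44, and at 2.45, 7.62 and 10.2 against 3.83, 4.21 and 0.386 FPKM. In Igh, Ighv9-3 was level, with 3.13, 2.24 and 2.18 FPKM in wild type and 2.80, 2.38 and 2.23 in ieCtnnb1KO. Ighv3-6 had 5.72, 5.23 and 2.19 FPKM against 1.40, 2.90 and 1.42, and Ighv1-39 0.736, 2.24 and 5.09 against 0.525, 1.19 and 0.406, both with overlap.

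Of the lambda V segments, Iglv3 had 5.76, 3.09 and 2.68 FPKM in wild type and 1.93, 1.72 and 0.934 in ieCtnnb1KO (log2 fold change −1.07). Iglv2 had 2.82, 3.57 and 3.49 FPKM against 1.68, 2.28 and 2.53 (log2 fold change −0.52). The groups of both were apart, while Iglv1, the most abundant of the 3, overlapped at 2.48, 9.70 and 10.1 against 5.34, 11.1 and 6.19. A single segment was higher in ieCtnnb1KO without overlap, Igkv17-121, with 0.356, 0 and 0.527 FPKM in wild type and 0.846, 0.658 and 0.981 in ieCtnnb1KO (log2 fold change 0.80, adjusted p = 0.845 from limma). Ighv1-15 was also among the higher segments of smallest p, at 0, 0 and 0.909 against 1.05, 1.53 and 0.406 FPKM, with overlap. Igkv17-121 and Ighv1-15 averaged below 0.5 FPKM in wild type, so they passed the filter through ieCtnnb1KO.

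By family, the largest heavy chain family Ighv1 had 30.7, 36.7 and 50.1 summed FPKM in wild-type crypts and 14.7, 22.5 and 15.6 in ieCtnnb1KO crypts, a log2 difference of −1.15. Igkv4 had 11.6, 19.0 and 15.8 FPKM against 6.22, 7.24 and 5.16 (−1.30), and Igkv8 8.41, 7.34 and 12.8 against 4.002, 4.75 and 4.66 (−1.05). Ighv3, Ighv6, Ighv9, Igkv1, Igkv10 and Igkv14 were also lower without overlap. The groups of all other families overlapped, Igkv3, Ighv5 and Igkv6 among them, with Igkv6 at 9.48, 23.2 and 20.0 FPKM against 10.7, 12.3 and 5.27. The number of V segments with any fragment was lower too, 60, 61 and 61 in Igh of wild type and 51, 53 and 49 in ieCtnnb1KO, and 63, 62 and 63 in Igk against 53, 57 and 50. These numbers move with the number of V fragments in a library.

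The ratio of V to C FPKM within a locus sets the V result against the C segments of the same antibody chains. At Igh it was 0.515, 0.661 and 0.900 in wild-type crypts (0.692 ± 0.194, SD, n = 3) and 0.370, 0.368 and 0.395 in ieCtnnb1KO crypts (0.378 ± 0.0154, SD, n = 3). At Igk it was 0.437, 0.476 and 0.699 in wild type (0.537 ± 0.141, SD, n = 3) and 0.393, 0.308 and 0.324 in ieCtnnb1KO (0.342 ± 0.0450, SD, n = 3). Both ratios were lower in each ieCtnnb1KO library than in each wild-type library, with log2 differences of −0.84 and −0.63, and wild-type 3 had the highest ratio at both loci. At Igl the groups overlapped, at 0.793, 0.738 and 0.723 against 0.725, 0.609 and 0.615. Recovered fragments in place of FPKM, a measure chosen after the data were seen, gave the same log2 differences of −0.84 and −0.63.

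T cell receptor segments, which are built from V and C pieces in the same way but in T cells, served as a second set. Their V to C ratio in crypts was 0.459, 0.379 and 0.685 in wild type and 0.396, 0.317 and 0.384 in ieCtnnb1KO, and the groups overlapped. Wild-type 3 was highest here as well. Their C segments summed to 94.6, 96.3 and 99.0 FPKM in wild type and 105.3, 102.8 and 105.6 in ieCtnnb1KO, higher without overlap, and their V segments to 43.4, 36.5 and 67.9 against 41.7, 32.6 and 40.5. Among 372 tested genes about as short as V segments the median log2 deviation from the gene's mean was −0.03, −0.08 and 0.09 in wild type and 0.03, 0.09 and 0.01 in ieCtnnb1KO. For the 56 protein-coding genes among them it was −0.31, 0.09 and 0.84 against −0.23, −0.06 and −0.26, so wild-type 3 stood apart there too. The part of these differences in the V result was not tested.

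**Figure D3:**
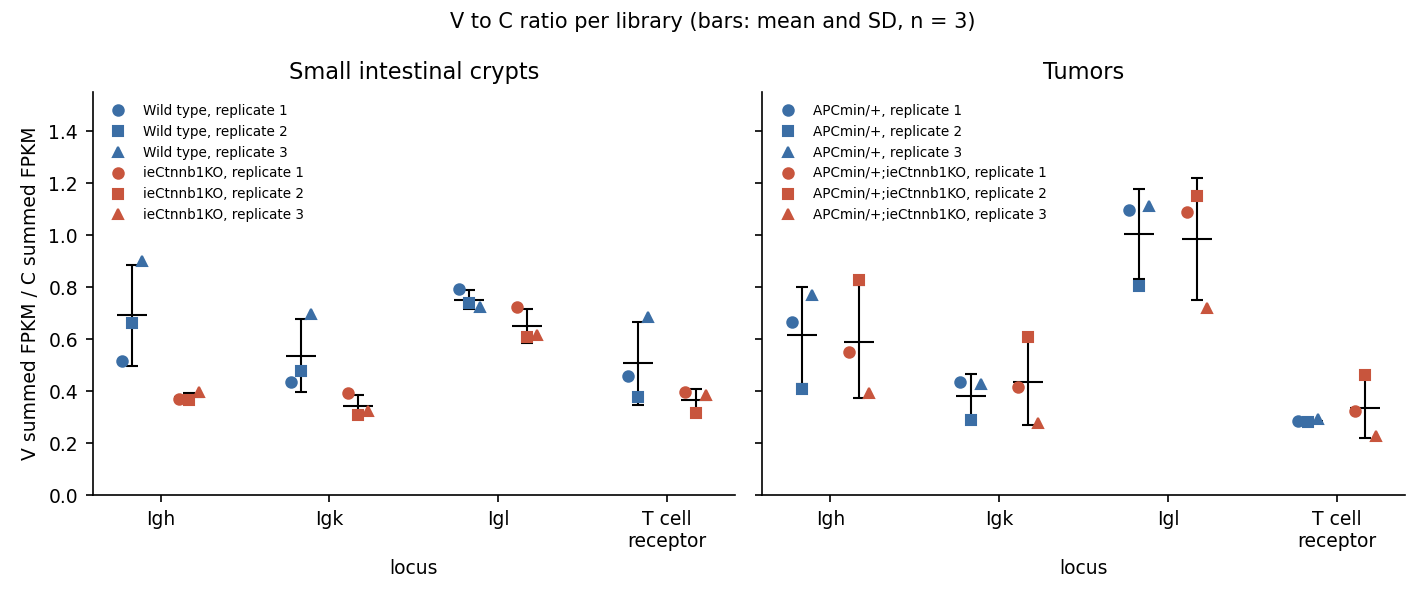
Ratio of summed V FPKM to summed C FPKM (vertical axis) at Igh, Igk, Igl and the T cell receptor loci, with a point for each library, marker shape for the replicate, color for the group, and bars for the mean and SD of 3 libraries. In crypts the ieCtnnb1KO points of Igh (0.368 to 0.395) and Igk (0.308 to 0.393) lie below all wild-type points, and in tumors knockout 2 is highest and knockout 3 lowest at each of the 4 places on the axis.

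D and J segments, which are shorter than a read, gave few fragments. D segments had 3 fragments over all 6 crypt libraries, of which Ighd2-4 had 1 in ieCtnnb1KO 3, and they are 10 to 29 bases long. J segments had 33, 26 and 52 fragments in wild type and 15, 47 and 21 in ieCtnnb1KO. Ighj4, the heavy J segment of highest level, had 9, 4 and 4 fragments against 0, 3 and 6, Igkj5 3, 9 and 18 against 1, 13 and 2, and Iglj3p 0, 1 and 2 against 2, 4 and 1. Of the other heavy J segments, named after their values were seen, Ighj3 had 8, 3 and 3 fragments against 1, 0 and 2, Ighj1 had 1 in all and Ighj2 none. Only Ighj3 had groups apart, and the summed FPKM of D and J, which division by a short length makes large, was 50.9, 39.5 and 83.2 in wild type and 23.6, 69.2 and 38.6 in ieCtnnb1KO. The summed FPKM of Igl J was 3.40, 1.72 and 5.04 against 6.47, 7.85 and 5.62, higher without overlap but on at most 4 fragments of a segment in a library.

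Jchain, which encodes the chain that joins IgA and IgM into polymers, had 10.4, 14.4 and 11.4 FPKM in wild-type crypts (12.1 ± 2.05, SD, n = 3) and 8.10, 9.01 and 8.71 in ieCtnnb1KO crypts (8.61 ± 0.464, SD, n = 3). The groups were apart, with a log2 fold change of −0.45 (adjusted p = 0.797 from limma). Per Igha FPKM, Jchain was 0.253, 0.299 and 0.246 in wild type and 0.185, 0.175 and 0.255 in ieCtnnb1KO. Pigr, the epithelial receptor that carries polymeric IgA to the lumen, had 985, 1138 and 1032 FPKM in wild type and 1321, 1128 and 1270 in ieCtnnb1KO. Only wild-type 2 reached the ieCtnnb1KO range (log2 fold change 0.24, adjusted p = 0.901 from limma).

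No gene of any marker list passed the test in crypts, and the counts below are at an unadjusted p below 0.05. At that p, 2.36% of all tested genes were lower and 3.48% higher. Of 15 plasma cell genes 12 were tested and 2 were lower, with summed FPKM of 298, 310 and 248 in wild type and 221, 271 and 270 in ieCtnnb1KO, and Txndc5 the most abundant. Mzb1, a plasma cell chaperone chosen after its values were seen, had 4.07, 4.48 and 3.03 FPKM against 1.49, 3.10 and 2.52, and Tnfrsf17, a receptor of mature plasma cells, was above 0 only in ieCtnnb1KO 2, at 0.0732. Of 18 B cell genes 17 were tested and 1 was lower, with sums of 68.5, 63.3 and 60.1 against 53.9, 69.6 and 57.4. Its most abundant gene, Cd79b, a chain of the B cell receptor, had 10.8, 9.96 and 7.36 FPKM against 10.2, 12.9 and 8.21 (log2 fold change 0.14, and −0.02 without wild-type 3 or ieCtnnb1KO 2). Cd22, an inhibitory receptor of B cells, had 2.78, 2.31 and 2.30 FPKM against 1.43, 1.81 and 1.553, with groups apart (log2 fold change −0.50, adjusted p = 0.797 from limma). Below 0 in log2 fold change were 13 of the 17 tested B cell genes (median −0.18) and 10 of the 12 plasma cell genes (median −0.13), the direction of the V segments, while both sums overlapped.

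Of 13 germinal center genes 9 were tested with none at that p, at sums of 51.6, 55.0 and 43.3 FPKM in wild type and 47.7, 45.7 and 52.9 in ieCtnnb1KO, Msh6 the most abundant. The 5 genes of V(D)J recombination summed to at most 0.326 FPKM, with Rag2 and Igll1 at 0 and Vpreb1 the most abundant, and none passed the filter, so markers of B cell precursors were at or near 0. Of 18 genes of IgA transport 12 were tested with none at that p, and the sum of 1076, 1234 and 1133 against 1435, 1248 and 1367 FPKM, higher without overlap, is mostly Pigr, while Madcam1 and Il5 were at 0. Fcgrt, the neonatal Fc receptor, had 18.1, 17.4 and 18.8 FPKM against 21.6, 31.5 and 19.5 (log2 fold change 0.38). Of 8 Fc receptor genes 4 were tested with none at that p, at 21.9, 18.7 and 20.2 against 19.3, 21.7 and 18.4 FPKM, Fcer1g the most abundant. These sums overlapped except for IgA transport.

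Other cell types of crypts were read from the same lists. All 15 T cell genes in the table were tested and 1 was higher, with sums of 393, 395 and 506 FPKM in wild type and 409, 389 and 399 in ieCtnnb1KO, mostly Gzma. That gene was Cd3d, a chain of the T cell receptor complex, with 3.45, 4.54 and 5.34 FPKM against 6.40, 6.51 and 5.45 (log2 fold change 0.44, adjusted p = 0.844 from limma), while 10 of the 15 were below 0 (median −0.06). Macrophage and dendritic cell genes (8 of 10 tested, none at that p) summed to 39.0, 32.4 and 39.4 against 30.9, 39.0 and 17.3, Lyz2 the most abundant. Genes of the follicle-associated epithelium, which covers lymphoid follicles, summed to 42.2, 52.2 and 35.9 against 28.9, 32.0 and 39.0 (4 of 6 tested, none at that p, Ccl9 the most abundant). Epithelial genes summed to 4055, 4781 and 5073 FPKM against 4448, 5327 and 4859 (8 of 8 tested, none at that p, Krt8 the most abundant). The label of an epithelial sample thus fits its markers, and all of these sums overlapped. Log2 fold changes were below 0 for 8 of 9 germinal center, 6 of 12 IgA transport, 2 of 4 Fc receptor, 7 of 8 macrophage, 3 of 4 follicle-associated and 5 of 8 epithelial genes. Among those of smallest p in a list, Bcl6, a repressor of germinal center B cells, had 2.52, 1.77 and 2.21 against 1.27, 1.81 and 1.998 FPKM, Trim21, an antibody receptor of the cytosol, 4.42, 3.59 and 3.95 against 3.27, 4.26 and 3.09, C1qc, a complement gene of macrophages, 1.47, 1.59 and 2.61 against 0.891, 1.76 and 0.442, and Krt19, a keratin of simple epithelia, 767, 689 and 690 against 883, 1227 and 717, all with overlap.

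Paneth cell genes, which mark the secretory cells at the crypt base, moved with the V segments in part. Of 7 tested genes 2 were lower, all 7 log2 fold changes were below 0 (median −0.56), and the sum was 19080, 27945 and 52445 FPKM in wild type and 20986, 18153 and 20877 in ieCtnnb1KO, with Defa24 the most abundant. Mmp7, the matrilysin that activates defensins, had 329, 426 and 484 FPKM against 228, 239 and 275 (log2 fold change −0.72, adjusted p = 0.757 from limma). Wild-type 3 was the highest library in the Paneth sum, as in the V to C ratios of Igh, Igk and the T cell receptors but not of Igl. Fibroblast and smooth muscle genes summed to 6.60, 4.52 and 5.29 FPKM against 2.24, 5.27 and 3.21 (2 of 10 tested, 1 lower, Dcn the most abundant), and Col3a1, a fibrillar collagen, had 0.737, 0.766 and 0.734 against 0.369, 0.474 and 0.239 (log2 fold change −0.54). Endothelial genes summed to 2.62, 3.99 and 2.64 FPKM against 2.05, 2.19 and 2.93 (3 of 6 tested, none at that p, Lyve1 the most abundant), with Prox1, a factor of lymphatic endothelium, at 0.739, 1.46 and 0.973 against 0.461, 0.477 and 1.09. The 2 fibroblast and 3 endothelial genes tested were all below 0. The part of these cell types in the V result was not tested.

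The tumor comparison addresses what loss of the enhancer alters in tumors that arise with the Min allele of Apc. Immunoglobulin levels overlapped between the genotypes, with control libraries both at the top and at the bottom of the range. The sum over all segments was 7993, 2164 and 3843 FPKM in control tumors (4667 ± 3001, SD, n = 3) and 7864, 5739 and 3995 in knockout tumors (5866 ± 1938, SD, n = 3). The highest library had 3.69 times the lowest, and the difference between the groups' mean log2 values was 0.48 (0.03 without control 2 and 0.97 without control 1). V segments summed to 2657, 543 and 1315 FPKM in controls and 2496, 2261 and 985 in knockouts (0.52 on the same scale, −0.08 without control 2 and 1.07 without control 1), and C segments to 5055, 1547 and 2442 against 5192, 3265 and 2951 (0.46, 0.07 without control 2 and 0.92 without control 1). Igh V had 1014, 188 and 523 FPKM against 872, 818 and 336, Igk V 1462, 290 and 727 against 1438, 1320 and 541, and Igl V 181, 65.5 and 65.3 against 186, 123 and 108. Control 1 and knockout 1 were high at each locus, and control 2 was lowest at Igh and Igk.

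None of the 182 tested segments had an adjusted p below 0.05 in tumors, against 0 of 16743 genes (0%), with limma as in crypts. The smallest adjusted p of any gene was 0.269, and voom called 0 segments. At an unadjusted p below 0.05, 12 segments (6.59%) were higher in knockout tumors, against 1417 of all tested genes (8.46%), and 1 segment was lower (0.549%), against 1004 genes (6%). Groups did not overlap, with knockouts higher, for 10 segments (5.49%), against 1912 genes (11.4%), and with knockouts lower for 1 segment, against 1781 genes (10.6%). The log2 fold change was below 0 for 61 of 182 segments (33.5%), against 8157 genes (48.7%), with a median of 0.35 for the segments and 0.01 for all genes. Without control 2 the median of the segments was −0.12, with 99 of 182 below 0, so this direction rests on 1 library. The shares of segments with an unadjusted p below 0.05 or with groups apart were below those of all genes, so single segments gave no result beyond the background in this fit. With quantile normalization, another scaling, a library left out or the replicate block some shares were above it. Quantile normalization gave 14 higher segments at an unadjusted p below 0.05 (7.69%, against 6.67% of genes). Scaling without the 50 top genes gave 12 (6.59%, against 6.44%). At that p, 11 segments were lower without control 2 (6.04%, against 3.30% of genes), and 27 were higher without control 1 (14.8%, against 9.73%), 22 without knockout 3 (12.1%, against 6.43%) and 26 with the block (14.3%, against 6.93%).

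Tumors held almost only IgA among the heavy chains. Igha had 1459, 438 and 608 FPKM in control tumors and 1512, 947 and 821 in knockout tumors (log2 fold change 0.53, adjusted p = 0.608 from limma, and log2 fold change 0.16 without control 2). IgA took 96.0%, 95.2% and 89.7% of heavy chain C FPKM in controls and 95.5%, 95.7% and 96.4% in knockouts. IgG took 3.64%, 4.27% and 7.37% against 4.03%, 3.21% and 2.54%, and IgM 0.358%, 0.475% and 2.88% against 0.352%, 1.03% and 0.998%. Control tumor 3 thus had the lowest IgA share and the highest IgG and IgM shares of the 6. IgD stayed at or below 0.0727% and IgE at or below 0.0596%.

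The minor isotypes varied between single tumors. Ighm had 5.44, 2.19 and 19.5 FPKM in controls and 5.57, 10.2 and 8.50 in knockouts (log2 fold change 0.29, and −0.38 without control 2), highest in control 3. Ighg1 had 21.1, 6.17 and 14.2 FPKM against 13.1, 8.83 and 3.12, Ighg2b 16.9, 6.59 and 9.39 against 13.2, 9.61 and 10.9, and Ighg2c 17.1, 6.63 and 24.7 against 37.0, 13.3 and 7.45. Ighg3 was low, at 0.197, 0.265 and 1.70 FPKM against 0.470, 0.0745 and 0.179. Ighd had 0.260, 0.191 and 0.493 FPKM against 0.948, 0.427 and 0.169, and Ighe 0.429, 0.115 and 0.169 against 0.196, 0.590 and 0.0405. Every C segment overlapped between the groups, and Iglc4 was at 0 in all 6 tumors. The ratio of Ighm to Ighd was 5.87 to 50.4, a wider range than in crypts.

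Igkc had 3370, 1006 and 1705 FPKM in control tumors and 3439, 2168 and 1949 in knockout tumors (log2 fold change 0.44, and 0.03 without control 2) and put the 6 libraries in the same order as Igha. Iglc1 had 140, 73.7 and 53.3 FPKM against 156, 95.02 and 143, Iglc2 22.7, 4.06 and 4.48 against 10.5, 9.37 and 5.24, and Iglc3 2.19, 3.62 and 0.888 against 3.85, 2.34 and 2.84, and lambda made up 4.66%, 7.49% and 3.33% of light chain C FPKM against 4.72%, 4.69% and 7.18%. Control 2 and knockout 3 had the highest lambda shares. The ratio of light to heavy chain C FPKM was 2.28 to 2.60. Of 9 tested C segments 8 had a log2 fold change above 0 (median 0.29), and of 160 tested V segments 106 (median 0.38, range −3.25 to 3.08).

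The V to C ratio gave no separation by genotype in tumors. It was 0.667, 0.408 and 0.771 in controls and 0.551, 0.826 and 0.395 in knockouts at Igh, and 0.434, 0.288 and 0.426 against 0.418, 0.609 and 0.278 at Igk. At Igl it was 1.10, 0.805 and 1.11 against 1.09, 1.15 and 0.718, and for T cell receptors 0.284, 0.283 and 0.293 against 0.324, 0.461 and 0.227. Knockout 2 was highest and knockout 3 lowest at all of these loci, the T cell receptor loci included. Summed T cell receptor V FPKM was 6.10, 5.14 and 4.74 in controls and 7.46, 9.84 and 6.59 in knockouts, higher without overlap, and C FPKM 21.5, 18.2 and 16.2 against 23.0, 21.3 and 29.1. Among 436 genes of V segment length, chosen as in crypts, the median log2 deviation from the gene's mean was 0.01, −0.07 and −0.06 in control tumors and 0.04, 0.03 and 0.11 in knockout tumors, and among the 64 protein-coding ones −0.16, −0.19 and −0.11 against 0.05, 0.37 and 0.18, both higher without overlap, the direction of the tumor segments. Their part in the segment levels and the difference between the tissues in this ratio were not tested.

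The V segments of tumors named next had groups apart, at shares below those of all genes (5.49% against 11.4% higher), and are given as a description. Ighv1-47 had 0, 0.153 and 0.505 FPKM in controls and 6.42, 2.04 and 10.8 in knockouts, from 0, 1 and 3 fragments against 41, 13 and 67 (log2 fold change 3.08, SE 0.56, adjusted p = 0.269 from limma). Igkv8-30 had 17.3, 3.46 and 6.36 FPKM in controls and 73.1, 46.4 and 21.6 in knockouts, from 103, 21 and 35 fragments against 433, 274 and 124 (log2 fold change 2.43, SE 0.63, adjusted p = 0.269 from limma). All 3 knockout tumors were above all 3 controls for both, and Ighv1-47 was close to absent from the controls. Igkv4-55 had 0.978, 0.320 and 1.59 FPKM against 3.61, 8.88 and 3.89 (log2 fold change 2.02, adjusted p = 0.269 from limma). Ighv1-7 had 3.02, 2.499 and 1.03 FPKM against 7.37, 5.78 and 4.46 (log2 fold change 1.31), and Ighv7-1 0, 0.167 and 0.184 against 0.514, 1.546 and 1.06 (log2 fold change 1.28). Ighv1-72, Ighv1-74, Ighv9-4, Igkv17-127 and Igkv4-70, chosen after their values were seen, also had knockouts above controls without overlap. Of these 10 segments 4 averaged below 0.5 FPKM in controls, so they passed the filter through the knockouts. They were Ighv1-47, Ighv7-1, Ighv9-4 and Igkv4-70.

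Ighv1-5 was the only segment lower in knockout tumors without overlap, with 1.56, 1.99 and 7.96 FPKM in controls and 1.26, 0.473 and 0.649 in knockouts (log2 fold change −1.49, adjusted p = 0.32 from limma). Control 3 stood far above the others. Igkv14-126 showed how far single tumors differed, with 46.9, 0 and 13.4 FPKM in controls and 0.347, 0.174 and 0.179 in knockouts, from 272, 0 and 72 fragments against 2, 1 and 1. It was absent from control 2, so its groups overlapped. The other lower segments of smallest p also overlapped, with Ighv1-12 at 6.56, 1.26 and 8.32 against 3.70, 0.969 and 0.997, Ighv2-6-8 2.12, 0.173 and 0.955 against 0.710, 0 and 0, and Igkv3-9 1.548, 0 and 1.30 against 0.346, 0 and 0 FPKM. Igkv14-126, Ighv2-6-8 and Igkv3-9 averaged below 0.5 FPKM in knockouts, so they passed the filter through the controls.

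The abundant V segments had groups that overlapped and differed in which library was highest. Iglv1, the main lambda V segment, had 163, 63.2 and 60.03 FPKM in controls and 175, 116 and 107 in knockouts (log2 fold change 0.60). Igkv1-110 had 132, 15.7 and 37.2 FPKM against 57.6, 51.9 and 44.1, and Igkv10-96 81.9, 22.3 and 41.0 against 87.2, 42.7 and 85.0. Control 2 was lowest in these 2 kappa segments. Igkv1-117 had 50.3, 16.95 and 121 FPKM against 190.3, 160 and 27.9 (log2 fold change 1.004, adjusted p = 0.624 from limma, and log2 fold change 0.28 without control 2), and Ighv1-81 55.4, 7.77 and 75.6 against 56.5, 56.8 and 9.5001. These 2 segments were highest in control 3 among the controls and lowest in knockout 3 among the knockouts. Of the other abundant heavy chain V segments, Ighv1-26 had 32.7, 10.9 and 27.2 against 52.8, 30.2 and 20.3, Ighv1-55 77.1, 7.74 and 7.25 against 16.02, 28.1 and 26.4, Ighv3-6 56.1, 11.8 and 31.0 against 50.6, 49.2 and 11.2, and Ighv9-3 45.8, 5.53 and 26.7 against 16.1, 17.8 and 19.4 FPKM. Of the light chain ones, Igkv6-15 had 34.5, 3.14 and 43.0 against 30.3, 49.9 and 29.8, Igkv9-124 46.9, 14.6 and 10.2 against 63.2, 20.8 and 16.2, Iglv2 8.78, 0.166 and 3.47 against 5.43, 3.07 and 0.175 and Iglv3 8.92, 2.07 and 1.76 against 5.71, 3.44 and 1.01 FPKM.

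J segments of tumors had more fragments than in crypts, Ighj4 47, 10 and 7 in controls and 28, 24 and 10 in knockouts, Igkj5 37, 14 and 9 against 29, 26 and 7, and Iglj1 10, 8 and 5 against 7, 7 and 8. Control 1 had the most fragments of each. D segments had 2 fragments, both in control 1, of which Ighd4-1 had 1. D and J together summed to 282, 73.5 and 86.2 FPKM in controls and 176, 213 and 58.0 in knockouts, with overlap.

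V segments were used unevenly, and which segment led differed between libraries. The effective number of Igh V segments, the inverse of the summed squared shares, was 28.7, 29.8 and 31.3 in wild-type crypts and 27.9, 27.5 and 31.2 in ieCtnnb1KO crypts, and 29.2, 36.5 and 22.4 in control tumors and 34.9, 34.4 and 30.2 in knockout tumors. At Igk it was 24.9, 29.3 and 26.6 against 20.7, 26.0 and 30.6 in crypts, and 29.0, 29.7 and 20.2 against 24.0, 26.8 and 18.4 in tumors. Groups overlapped in each case, and control tumor 3 had the fewest effective Igh segments. At Igl, which has 3 V segments, it was 2.59, 2.30 and 2.18 against 2.29, 1.73 and 2.04 in crypts and 1.02 to 1.22 in tumors, where Iglv1 alone took 90.2% to 98.9% of Igl V FPKM. The leading segment took 6.46% to 9.40% of Igh and 7.12% to 12.9% of Igk V FPKM in crypts. In tumors it took 6.26% to 14.5% of Igh and 7.69% to 16.7% of Igk, with Ighv1-81 at 14.5% and Igkv1-117 at 16.7% in control 3, and Igkv10-96 at 15.7% in knockout 3.

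**Figure D4:**
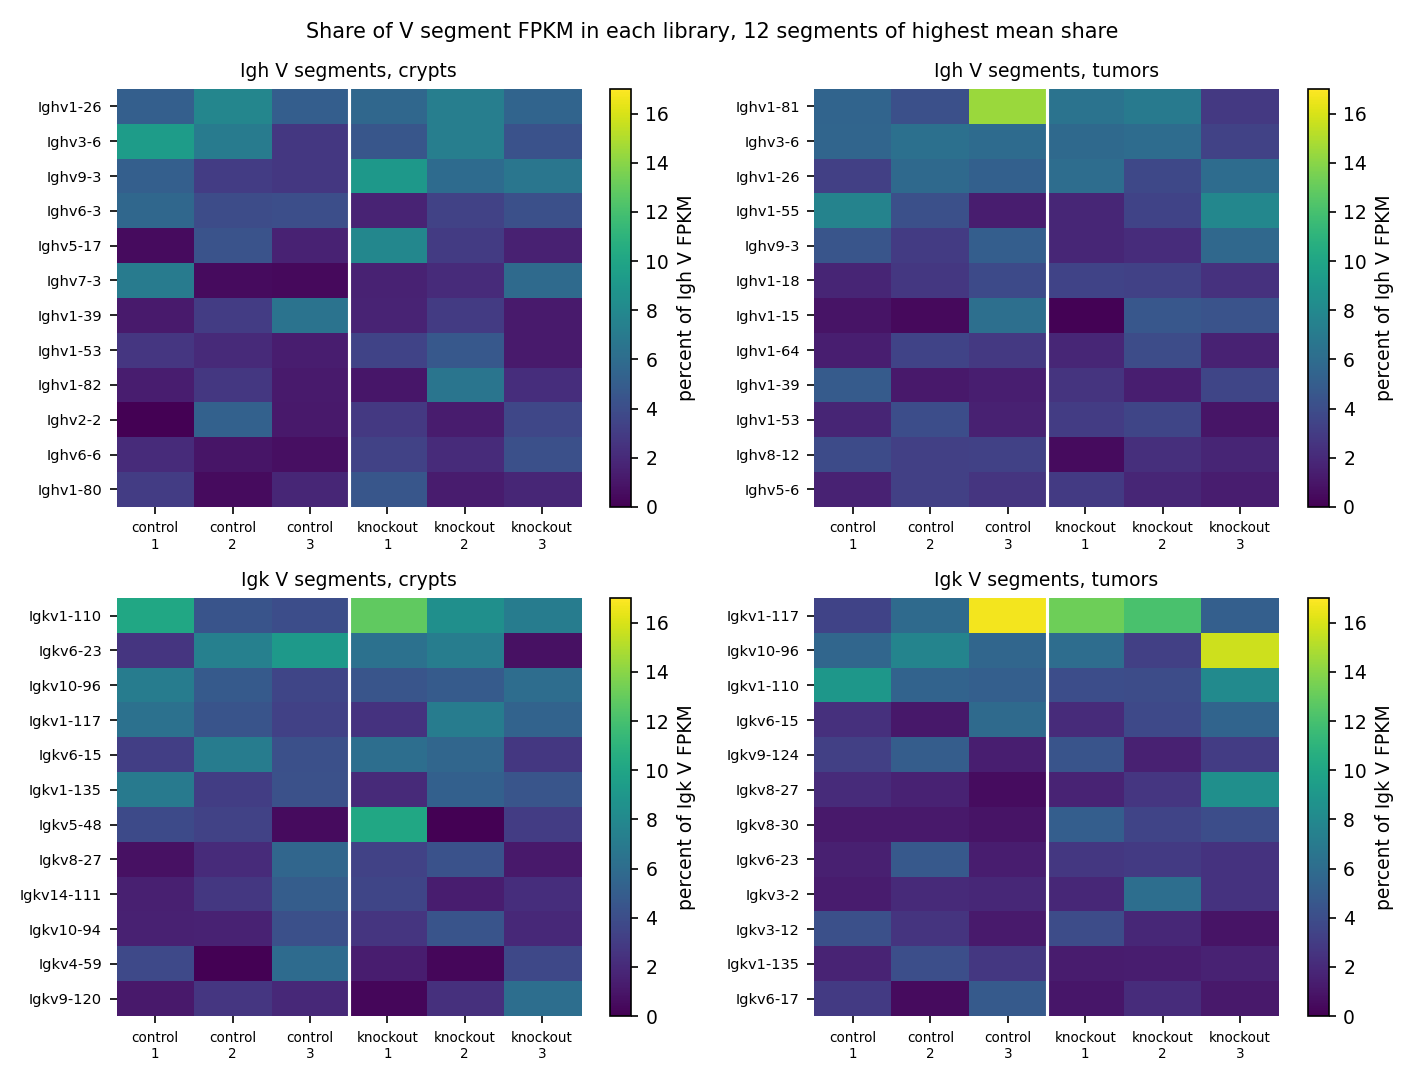
Percent of Igh or Igk V FPKM (color scale) taken by each of the 12 V segments of highest mean share (vertical axis) in each library (horizontal axis), for crypts and tumors, with a white line between control and knockout. Single cells stand out rather than whole groups, such as Igkv1-117 in control tumor 3 (16.7%) and Igkv10-96 in knockout tumor 3 (15.7%).

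The share of a V segment in its locus varied between libraries, over both genotypes together. Over segments with a mean of at least 10 fragments a library in crypts and 50 in tumors, the coefficient of variation of a share over 6 tumor libraries had a median of 58.9% for 24 Igh segments and 68.0% for 41 Igk segments. It ran from 19.8% for Ighv3-6 to 173% for Ighv1-58 in Igh, and from 28.8% for Igkv4-72 to 217% for Igkv4-63 in Igk. In crypts the median was 37.7% for 4 Igh segments and 48.2% for 12 Igk segments. Counting at these depths gives by itself a median of 10.7% and 10.5% in tumors and 25.6% and 24.1% in crypts, and the spread holds differences between mice as well.

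V usage was compared within and between the genotypes without a test. The overlap of Igh shares, the sum of the smaller share of each segment, had a median of 47.7% within wild-type crypts, 54.1% within ieCtnnb1KO crypts and 54.5% between them, and 59.3%, 59.1% and 59.8% at Igk. In tumors it was 63.1% within controls, 58.2% within knockouts and 61.6% between them at Igh, and 55.8%, 58.4% and 58.2% at Igk. By family, Ighv1 took 46.7% to 63.6% of Igh V FPKM. Igkv8 took 5.04%, 7.16% and 5.44% of Igk V FPKM in control tumors and 11.3%, 11.1% and 14.3% in knockout tumors, higher without overlap and partly the Igkv8-30 values above. Igkv12 took 2.23%, 2.78% and 3.38% in wild-type crypts and 4.94%, 4.18% and 5.78% in ieCtnnb1KO crypts, also without overlap, while its summed FPKM, 2.09, 2.86 and 3.74 against 2.997, 2.43 and 3.02, overlapped (log2 difference −0.01). They were picked out of all Igh and Igk families. In tumors every family but Igkv8, and in crypts every family but Igkv12, had shares that overlapped between the groups.

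V usage of crypts and tumors, whose tables were normalized separately, is set side by side without a test. The overlap of mean shares between the tissues was 74.6% at Igh, 72.6% at Igk and 62.5% at Igl. Of the 10 segments with the highest mean share in each tissue, 5 were shared at Igh (Ighv1-26, Ighv1-39, Ighv1-53, Ighv3-6 and Ighv9-3) and 6 at Igk (Igkv1-110, Igkv1-117, Igkv10-96, Igkv6-15, Igkv6-23 and Igkv8-27). V pseudogenes, 155 genes outside the 264, summed to at most 1.16 FPKM in any library.

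V segments lie in long arrays, and their place in the array was compared with their level. Igh V segments lie 149 to 2570 kb from the J segments, and Igk V segments 18.4 to 3166 kb. The nearer 57 Igh V segments took 52.7%, 53.4% and 36.4% of Igh V FPKM in wild-type crypts and 55.5%, 48.6% and 52.0% in ieCtnnb1KO crypts, and 38.9%, 47.5% and 36.0% against 45.5%, 37.5% and 35.1% in tumors. The nearer 51 Igk V segments took 41.8%, 46.8% and 59.6% against 50.9%, 47.2% and 43.8% in crypts, and 41.9%, 48.5% and 44.4% against 50.9%, 57.8% and 50.5% in tumors. Only the last pair of groups did not overlap, with knockout tumors higher. On the strand opposite to the Igk J segments lie 64 of the 102 Igk V segments, which join by inversion, and they took 47.1% to 68.8% of Igk V FPKM.

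**Figure D5:**
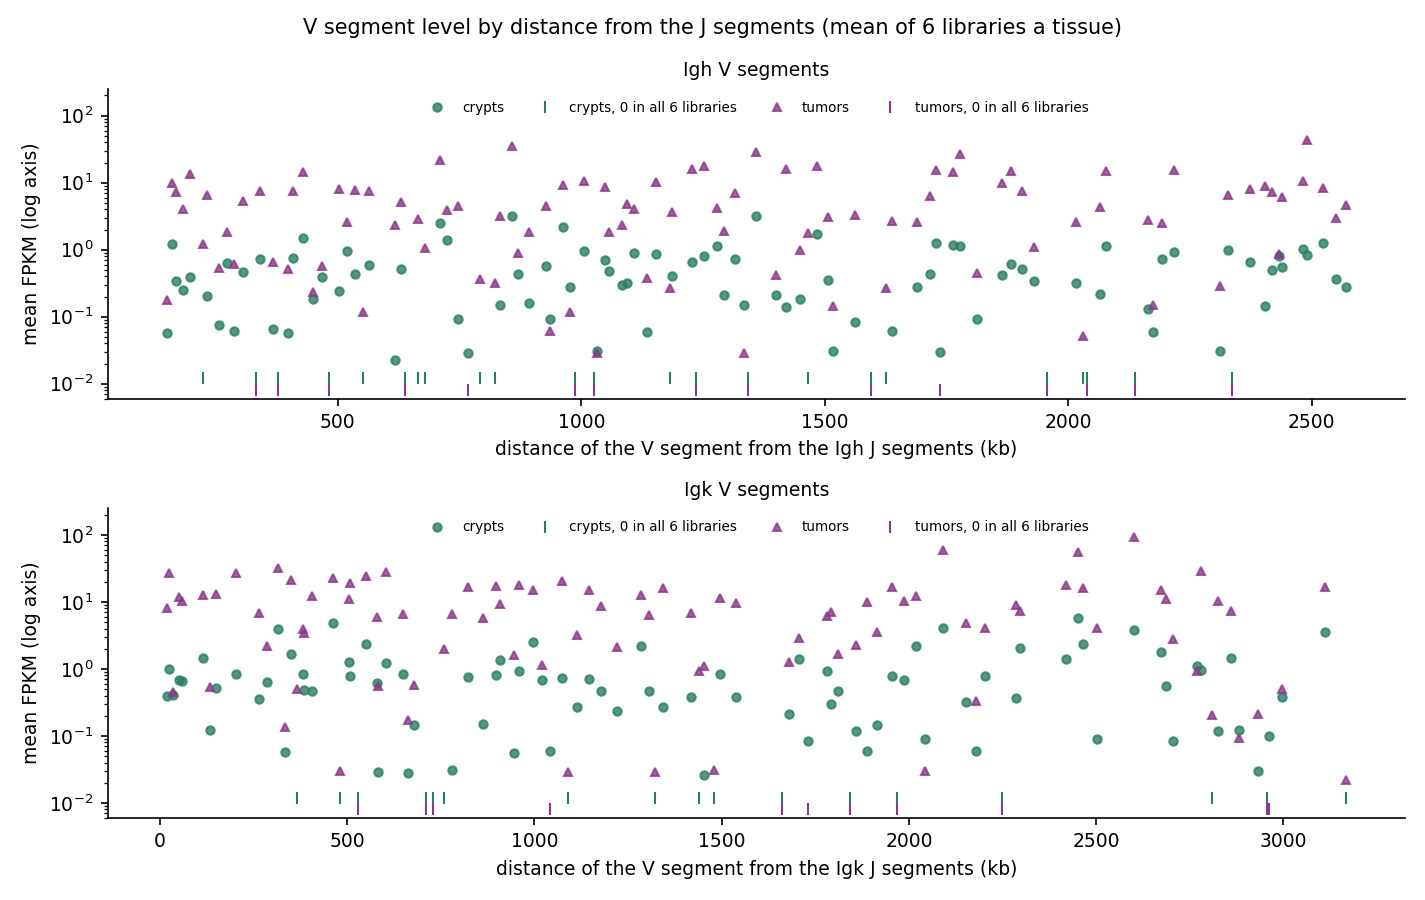
Mean FPKM of each V segment over 6 libraries (vertical axis, logarithmic) against its distance from the J segments of its locus in kb, for Igh and Igk, with circles for crypts, triangles for tumors and ticks at the bottom for segments at 0. Segments used at high and low level lie side by side along both arrays, from 149 to 2570 kb at Igh and from 18.4 to 3166 kb at Igk.

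Jchain had 254, 71.5 and 113 FPKM in control tumors and 216, 167 and 121 in knockout tumors (log2 fold change 0.36, and −0.05 without control 2). Per Igha FPKM it was 0.174, 0.163 and 0.186 against 0.143, 0.176 and 0.147. Pigr had 228, 249 and 198 FPKM in controls and 252, 305 and 217 in knockouts (log2 fold change 0.19), with overlap.

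No gene of a marker list passed the test in tumors, and the counts are again at an unadjusted p below 0.05. At that p, 8.46% of all tested genes were higher and 6% lower. Of 15 plasma cell genes 14 were tested and 4 were higher, with sums of 673, 420 and 454 FPKM in controls and 678, 592 and 609 in knockouts, with overlap, and Sdc1, which epithelium also carries, the most abundant. Fkbp11, a folding enzyme of secretory cells, had 3.08, 2.55 and 1.73 FPKM against 4.94, 4.01 and 4.88, with groups apart (log2 fold change 0.81, adjusted p = 0.269 from limma). Mzb1 and Tnfrsf17, chosen after their values were seen, had 10.99, 3.42 and 5.91 against 13.6, 10.6 and 7.37 FPKM, and 0.909, 0.223 and 0.328 against 0.839, 0.918 and 0.866. Of 18 B cell genes 9 were tested with none at that p, at sums of 25.7, 19.5 and 21.1 against 31.3, 27.0 and 20.99 FPKM, mostly Blnk. Ms4a1, a surface protein of B cells also chosen after its values were seen, did not pass the filter in tumors, with at most 0.231 FPKM in any library. In crypts Ms4a1 had 1.93, 1.96 and 1.64 FPKM in wild type and 1.62, 1.94 and 1.43 in ieCtnnb1KO, so it was higher in crypts, the tissue with the larger shares of IgM and IgD, without a test between the tissues.

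Of 13 germinal center genes 8 were tested in tumors and 0 passed adjustment, at sums of 46.4, 50.8 and 51.2 FPKM in controls and 48.7, 42.5 and 44.4 in knockouts, Msh6 the most abundant. The V(D)J recombination genes summed to at most 0.564 FPKM, with Rag1 and Rag2 at 0, Vpreb1 the most abundant and none tested. Of 18 genes of IgA transport 15 were tested and 2 were higher, at 318, 315 and 268 against 344, 415 and 298 FPKM, Pigr the most abundant. Fcgrt had 19.9, 11.5 and 12.4 FPKM against 19.9, 24.5 and 23.1 (log2 fold change 0.65). Fc receptor genes summed to 70.3, 49.1 and 62.1 against 67.1, 76.8 and 47.8 (7 of 8 tested, none at that p, Fcer1g the most abundant). T cell genes summed to 31.8, 26.2 and 25.6 against 34.6, 31.6 and 36.3 (11 tested, 1 lower and 1 higher, Trac the most abundant), and Gzma, a granule protease of killer cells, had 0.675, 1.39 and 1.20 against 0.432, 0.310 and 0.510 (log2 fold change −0.77). These 5 sums overlapped between the groups.

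Summed levels of epithelial genes and of fibroblast genes were higher in knockout tumors, and no gene passed the test. Epithelial genes summed to 4182, 4208 and 3658 FPKM in controls and 4938, 4824 and 5089 in knockouts (8 of 8 tested, 2 higher, Krt8 the most abundant), and 7 of 8 had groups apart. Of all tested genes, 11.4% had groups apart with knockouts higher, and 8.46% were higher at an unadjusted p below 0.05. Krt20, a keratin of differentiated gut epithelium, had 92.9, 47.8 and 49.2 FPKM against 112, 125 and 115 (log2 fold change 0.96, adjusted p = 0.27 from limma). Fibroblast and smooth muscle genes summed to 461, 329 and 302 against 479, 574 and 490 (10 of 10 tested, 5 higher, Col1a1 the most abundant), and Pdgfra, a growth factor receptor of fibroblasts, had 17.4, 16.2 and 15.4 against 19.4, 22.5 and 20.0 (log2 fold change 0.32). Both sums were higher without overlap, as was that of the follicle-associated epithelium genes, 85.1, 74.7 and 89.0 against 92.9, 93.8 and 110 (5 of 6 tested, none at that p). This last sum is mostly Anxa5, at 64.5, 61.2 and 70.6 against 75.3, 72.6 and 94.3 FPKM, and 3 of the 5 genes had a log2 fold change below 0 (median −0.01).

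Macrophage and dendritic cell genes summed to 686, 477 and 706 FPKM in control tumors and 677, 866 and 554 in knockout tumors (10 of 10 tested, 2 higher, Lyz2 the most abundant). C1qa, a complement gene of macrophages, had 74.3, 45.1 and 53.3 FPKM against 86.8, 112 and 82.9 (log2 fold change 0.72). Endothelial genes summed to 89.2, 97.1 and 120 against 75.7, 82.3 and 72.7, lower without overlap (6 of 6 tested, 1 lower and 1 higher). This sum is mostly Prox1, at 55.7, 63.4 and 87.4 against 38.1, 46.8 and 37.7 FPKM, a factor of lymphatic endothelium that intestinal tumor cells can also carry. Pecam1, a general endothelial marker, had 8.93, 7.15 and 6.93 FPKM against 10.3, 10.8 and 11.1 (log2 fold change 0.47). Paneth cell genes summed to 1915, 1974 and 2136 FPKM against 2853, 4402 and 1642, with overlap (7 of 7 tested, none at that p, Lyz1 the most abundant). Fcgr1, a receptor for IgG, and Vpreb3, a B cell gene, had the smallest p of their lists, at 2.15, 1.90 and 1.81 against 3.24, 3.27 and 2.08 FPKM, and at 0.719, 0.353 and 0.545 against 1.23, 0.871 and 0.672 FPKM, with overlap. Log2 fold changes were below 0 for 1 of 14 plasma cell, 1 of 9 B cell, 4 of 8 germinal center, 2 of 15 IgA transport, 3 of 7 Fc receptor, 5 of 11 T cell, 1 of 10 macrophage, 0 of 8 epithelial, 1 of 10 fibroblast, 3 of 6 endothelial and 0 of 7 Paneth cell genes. The part of these cell types in the immunoglobulin levels was not tested.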

How the data were processed

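Bulk RNA-seq of 12 libraries, 3 in each of 4 groups, was used as deposited. Per the labels and the methods, the authors trimmed reads (cutadapt), aligned them to mm10 with HISAT2, named Cufflinks 2.2.1, featureCounts and DESeq2 for counting and testing, and deposited FPKM per gene and library in a table for each tissue. The FPKM were scaled between the 6 libraries of a table, and fragments were recovered from FPKM times gene length within a tolerance of 0.05.

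The 264 segments and the marker lists were chosen with earlier results of these data known. FPKM were summed by locus, kind of segment and isotype. In each table, genes averaging 0.5 FPKM or more were fitted with limma 3.58.1 in R 4.3.3 (variance trend, no covariates) on log2(FPKM + 0.5), which understates changes of genes at low level, with Benjamini-Hochberg adjustment over all tested genes and a threshold of 0.05. Wilson intervals (95%) used scipy 1.17.1, and tables pandas 2.3.3 and numpy 2.4.6 in Python 3.11.15. Identities were computed with edlib 1.3.9.post1. The fit was tested on simulated data.

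Named genes were every C segment, the 5 V and the top D and J segments of highest mean FPKM in each table and locus, up to 5 segments per direction with the smallest unadjusted p, Jchain, Pigr, the most abundant (in part without its values) and the smallest-p gene of each list, and Ctnnb1. Others are marked in the text as chosen after their values were seen. Values of 2 genes of the lists are not reported here. Alternatives were the pseudocount, filter, scaling, quantile normalization, variance model, replicate block, voom on fragments, units and segment sets of the sums, and leaving out each library. Alternatives on units of the V to C ratios and on scaling for Igkv8-30, and filters on groups apart, were added after the data were seen.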

Additional observations from a re-analysis of the deposited data

Results flagged for a closer look

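Igkv8-30 differed in opposite directions in the tissues, with every library of a group apart from the other group in FPKM as deposited. In crypts the groups overlapped under 4 of 5 other scalings, added after the values were seen, and in tumors under 0 of 5. Its log2 fold change was −0.98 in crypts, from 2.28, 1.42 and 1.39 FPKM in wild type and 0, 1.30 and 0.967 in ieCtnnb1KO, and 2.43 in tumors, where all 3 knockouts were above all 3 controls. The crypt values rest on 42 fragments and the tumor values on 990. It was 1 of 104 segments tested in both tissues with groups apart in opposite directions (0.962%), against 109 of 13370 genes (0.815%), so 1 such case is near the background, and in crypts it lies outside the rule for named genes and was chosen after its values were seen. Neither fold change passed adjustment in limma, and the difference between the tissues was not tested.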

How the results depend on the processing

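No immunoglobulin segment was called under any setting. Log2 fold changes, of the 23 genes in crypts and 21 in tumors for which they were run, kept their direction and stayed uncalled in 138 of 138 and 126 of 126 values under 6 settings (2 pseudocounts, 2 rescalings, replicate block and voom), and in 135 of 138 and 124 of 126 with a library left out. Crypt segments lower without overlap, 21 (19.4%, against 5.15% of genes), numbered 15 with quantile normalization (13.9% against 4.85%), 16 with 2 of the rescalings and with fragments (14.8% against 4.32%), 21 without the 50 top genes (19.4% against 7.89%), and, tried after the data were seen, 14 of 61 with filter 1 (23% against 4.62%) and 10 of 73 with the limit in each group (13.7% against 4.59%). Tumor segments higher without overlap, 10, numbered 6 with that limit (3.77% against 11.5%). Segments lower in crypts at an unadjusted p below 0.05, 20 (18.5% against 2.36% of genes), numbered 12 of 61 with the filter at mean FPKM 1 (19.7% against 2.12%). They numbered 12 with voom (11.1% against 2.08%) and 21 of 203 without a filter (10.3% against 2.38%). With a library left out they numbered 17 to 25 (15.7% to 23.1%, against 1.54% to 4.54% of genes). Those higher in crypts, 1 (0.926% against 3.48%), numbered 0 with pseudocount 0.1, with filter 1 and with voom (against 3.44%, 3.65% and 3.15% of genes). With a library left out they numbered 0 to 3 (0% to 2.78%, against 1.72% to 5.17%). In tumors the lower ones, 1 (0.549% against 6% of genes), numbered 3 without a filter (1.38% against 4.66%). With a library left out they numbered 0 to 11 (0% to 6.04%, against 3.30% to 6.73%, and 11 without APCmin/+ replicate 2). The higher ones, 12 (6.59% against 8.46%), then numbered 10 to 27 (5.49% to 14.8%, against 5.05% to 9.73%, and 27 without APCmin/+ replicate 1). With the replicate block, tumors had 4 lower (2.198%, against 4.31% of genes) and 26 higher (14.3% against 6.93%), crypts 23 lower (21.3% against 2.38%) and 1 higher (0.926% against 2.78%), and 0 calls in either. Same-numbered libraries correlated at −0.05, −0.12 and 0.04 in crypts and 0.05, −0.09 and 0.05 in tumors. Differently numbered ones correlated at −0.20 to 0.25 in crypts and −0.17 to 0.13 in tumors. With 3 libraries a group, these values cannot decide whether the numbers pair libraries. The summed crypt FPKM difference of −0.43 was −0.26 with fragments scaled to library size and −0.56 to −0.34 with a library left out, and the summed tumor difference 0.03 to 0.97. The median over tumor segments, 0.35, was −0.12 without APCmin/+ replicate 2. Reversed values came only from leaving out a library. They were Igha in crypts (−0.22 to 0.0737), Cd79b in crypts (−0.0186 to 0.29), Ighm in tumors (−0.38 to 1.07) and Jchain in tumors (−0.0511 to 0.86), the last 2 without APCmin/+ replicate 2. The V to C differences in crypts stayed between −1.03 and −0.63 at Igh and −0.76 and −0.42 at Igk. The cause of these changes was not tested, apart from fewer segments under a stricter filter. Depth limits single V segments in crypts, with a median of 33.5 fragments over 6 libraries.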

Other observations

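Xbp1, the transcription factor of secretory cells, had 77.8, 66.2 and 66.5 FPKM in control tumors and 89.4, 89.6 and 96.1 in knockout tumors, with groups apart. It was chosen after its values were seen, and gut epithelium also carries it.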
